A study of Mus musculus with 10 samples.

Results

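The genes Cyba, Cybb, Ncf1, Ncf4, Rac2, Nox4 and Noxo1 encode subunits of the NADPH oxidases of phagocytes and of epithelial and other tissue cells. A probe was counted for a gene when the name printed for it, or the current symbol reached through its accession, was among these 7 names. This gave 7 of the 27670 genes on the arrays, with 11 of the 41174 probes.

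NADPH oxidases carry electrons from NADPH across a membrane to oxygen and so make superoxide or hydrogen peroxide. In phagocytes, Cybb and Cyba form the membrane-bound core, which stays inactive until the cytosolic subunits and the GTPase Rac2 join it after a microbe or an immune complex is sensed. In epithelial cells a related oxidase uses the organizer Noxo1 and the activator Noxa1, while Nox4 needs no cytosolic subunit and is known from vascular, fibroblast and kidney cells.

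Lung RNA came from 10 female mice of the inbred strain BALB/c, obtained at 6 to 8 weeks of age, and the labels name no genetic modification. In the smoke group, 5 mice breathed mainstream smoke of 12 reference cigarettes, without filters, in each of 2 whole body exposures of 50 minutes a day, on 5 days a week for 8 weeks. In the room air group, 5 mice received room air only over the same 8 weeks. Each lung was hybridised to its own Agilent whole genome array, and no source states that lungs were pooled.

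All scanner files hold a red and a green channel, although the labels name the green dye alone. The channels were told apart, over all 10 arrays together, by a Y chromosome gene and by genes of lung cells. Ddx3y, on the Y chromosome, averaged 2.97 ± 1.15 in red on the log2 scale, against 9.92 ± 0.43 for the green dye (SD over 10 arrays). The club cell gene Scgb1a1 was brighter in red by 6.72 and the alveolar type 1 gene Ager by 4.83 on the log2 scale. Red was thus read as female lung and green as a reference with male RNA. A level is given below as the log2 ratio of lung over reference, and a difference is the smoke mean minus the room air mean of these ratios.

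The deposited table of processed values has the groups the other way round. All of its 286449 values matched, to within 0.0001, the scanner file of the same replicate number in the opposite group. The scanner files were kept as assigned, and the direction of each difference below depends on that assignment. As a check of the labels, 3 genes known to be induced through the aryl hydrocarbon receptor or Nrf2 were read first. Cyp1b1, a cytochrome P450, had a log2 ratio of -1.61 ± 0.27 with room air and 1.45 ± 0.16 with smoke (SD, n = 5 each), which is 8.37-fold (limma adjusted p = 1.08e-07). The quinone reductase Nqo1 was 4.22-fold higher with smoke (adjusted p = 2.49e-07), and the receptor's repressor Ahrr 3.89-fold (adjusted p = 1.76e-06). For all 3 genes the smoke arrays, as assigned by the scanner files, lay above the room air arrays.

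Smoke-exposed lungs had higher ratios of 5 of the 7 subunit genes, and 0 were lower past the threshold of limma (0 at an unadjusted p under 0.05). The 5 were Cyba, Ncf1, Ncf4, Rac2 and Noxo1. Over all 27669 genes tested, limma called 4.95% higher and 3.27% lower with smoke at an adjusted p under 0.05. For 3 of the 7 genes, Cyba, Ncf1 and Ncf4, the 5 smoke arrays were all higher than the 5 room air arrays. That held for 4.62% of all genes, and the reverse order for 3.27%. With the slide as a block, 5 of the 7 were higher, against 7.5% of all genes, and 6.27% of all genes were lower. The median difference was 0.80 over the 7 genes and -0.0042 over all genes. Each of the 11 probes was well above background in red on 10 of 10 arrays, and 0 were saturated, so no subunit gene was lost to a filter. More cells of a type and more RNA per cell cannot be told apart in whole lung.

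**Figure D1:**
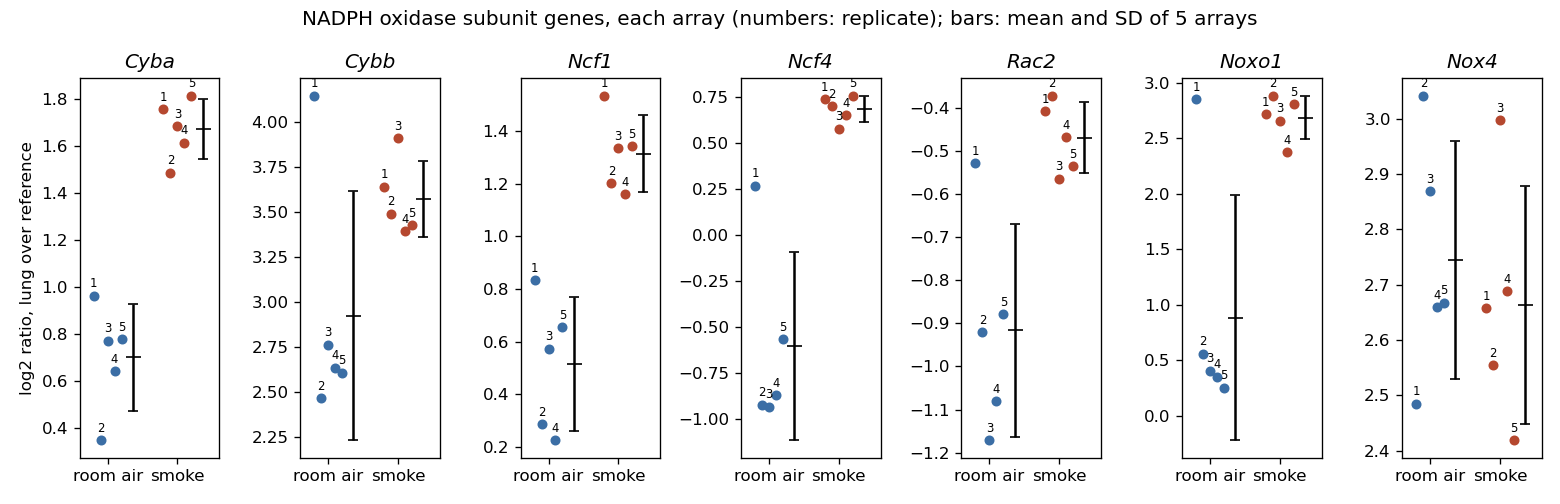
Log2 ratio of lung over reference for the 7 subunit genes on each array, by the brightest probe of each gene; points are arrays with their replicate number, black bars the mean and SD of 5 arrays, and each panel has its own scale. Cyba, Ncf1 and Ncf4 have smoke arrays wholly above the room air arrays, and replicate 1 of room air lies near or above the smoke arrays for Cybb and Noxo1.

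Cyba encodes the small membrane subunit that stabilises Cybb and is also the partner of Nox4. Its ratio was 0.96, 0.35, 0.77, 0.64 and 0.78 on room air arrays 1 to 5 and 1.76, 1.49, 1.68, 1.61 and 1.81 on smoke arrays 1 to 5. The lowest smoke array thus stood above the highest room air array, and the groups did not overlap. The means were 0.70 ± 0.23 and 1.67 ± 0.13 (SD, n = 5 each). The difference was 0.97 (SE 0.10), a 1.96-fold rise, with a limma adjusted p of 0.000230. Within slides, the smoke array was higher on 5 of 5 slides, by 0.80 to 1.14.

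Cybb encodes the catalytic subunit that carries the electrons. With room air its brighter probe gave 4.14, 2.46, 2.76, 2.63 and 2.61, and with smoke 3.64, 3.49, 3.91, 3.39 and 3.42. Room air replicate 1 was the highest of all 10 arrays, while the other 4 room air arrays lay below all 5 smoke arrays. The difference of 0.65 (SE 0.28, 95% interval 0.04 to 1.25) did not pass the threshold over all probes (limma adjusted p = 0.235, or 0.0980 when slides were blocks). With room air replicate 1 left out, the difference was 0.95 (SE 0.10), which is 1.94-fold, with an adjusted p of 0.000183. That array was singled out by these same values, so an adjusted p without it, here and below, is a description and not a test.

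The second Cybb probe gave 1.08, 0.64, 0.88, 0.13 and 0.52 with room air and 1.23, 1.07, 1.42, 1.03 and 0.97 with smoke. On this probe room air replicate 1 stood above 3 of the smoke arrays, and the groups again overlapped. Its difference was 0.49 (SE 0.16, adjusted p = 0.0960), and with the slide as a block the adjusted p was 0.0125. Without room air replicate 1 the difference on this probe was 0.60 (SE 0.14, limma adjusted p = 0.0214). The smoke array was higher on 5 of 5 slides by this probe and on 4 of 5 by the brighter one, where slide 1 gave -0.51.

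Among the cytosolic subunits, Ncf1 encodes the organizer that is phosphorylated on activation and bridges the complex to Cyba. The brighter Ncf1 probe gave 0.83, 0.29, 0.57, 0.22 and 0.65 with room air and 1.53, 1.20, 1.34, 1.16 and 1.34 with smoke. The 5 smoke arrays were all above the 5 room air arrays, the lowest smoke array being replicate 4 at 1.16. The difference was 0.80 (SE 0.12), or 1.74-fold, with a limma adjusted p of 0.00162. The second probe had 0.54 ± 0.20 with room air and 1.31 ± 0.13 with smoke (SD, n = 5 each), 1.70-fold higher (adjusted p = 0.000568), also without overlap. Both probes were higher with smoke on 5 of 5 slides.

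Ncf4 encodes a cytosolic subunit that binds a phosphoinositide of phagosome membranes. Its ratios were 0.27, -0.92, -0.93, -0.87 and -0.57 with room air, and 0.74, 0.70, 0.58, 0.65 and 0.76 with smoke. The smoke arrays lay close together, and room air replicate 1 was the room air array nearest to them without reaching them. The means were -0.61 ± 0.51 and 0.68 ± 0.07 (SD, n = 5 each). Ncf4 was 2.45-fold higher with smoke, a difference of 1.29 (SE 0.20, limma adjusted p = 0.00220). Within slides the smoke array was higher by 1.32 to 1.62 on slides 2 to 5 and by 0.47 on slide 1.

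Rac2, the GTPase of blood cells that switches on the assembled oxidase, had the smallest difference of the 5 genes past the threshold. The brighter probe read -0.53, -0.92, -1.17, -1.08 and -0.88 with room air, and -0.41, -0.37, -0.56, -0.47 and -0.54 with smoke. Room air replicate 1 lay within the range of the smoke arrays, and the other 4 room air arrays lay below it. The difference was 0.45 (SE 0.10), or 1.36-fold (limma adjusted p = 0.0246), and 0.60 (SE 0.15), or 1.51-fold, on the second probe (adjusted p = 0.0306). Leaving out room air replicate 2, 3 or 4 or smoke replicate 1, 2 or 4 ended the call on the brighter probe, with adjusted p from 0.0533 to 0.0655 and differences from 0.38 to 0.45. Without room air replicate 1 the difference was 0.54 (adjusted p = 0.000629), and the smoke array was higher on 5 of 5 slides by both probes.

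**Figure D2:**
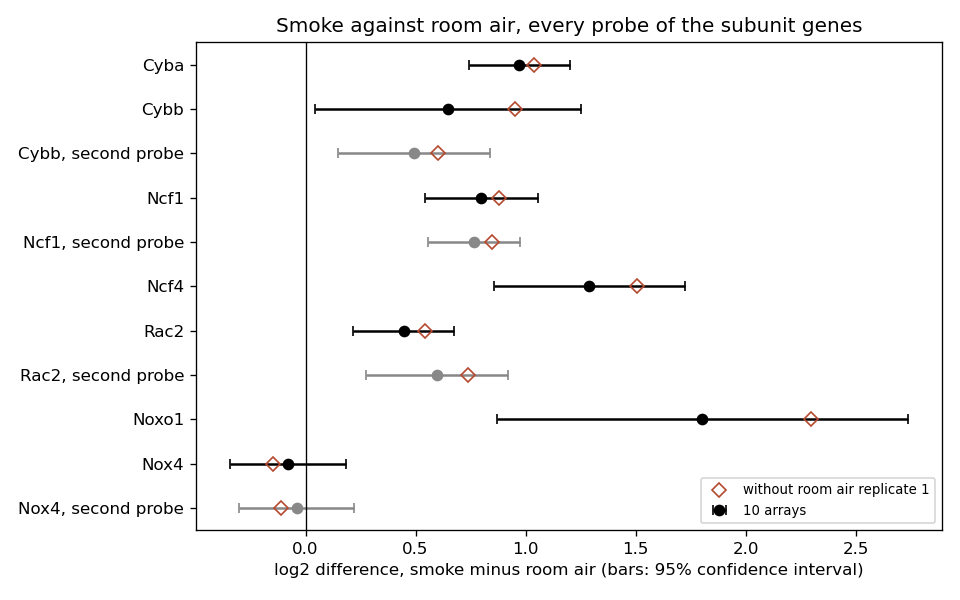
Log2 difference, smoke minus room air, for all 11 probes of the 7 genes; filled circles with bars are the difference over 10 arrays and its 95% confidence interval, grey marks a gene's second probe, and open diamonds leave out room air replicate 1. The intervals of both Nox4 probes span 0, and the diamond moves furthest from the circle for Noxo1.

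Noxo1 encodes the organizer of the epithelial oxidase, a relative of Ncf1, and had the largest difference among the 7 genes. Its ratios were 2.85, 0.56, 0.41, 0.35 and 0.25 with room air and 2.72, 2.88, 2.66, 2.37 and 2.81 with smoke. Of the room air arrays, replicates 2 to 5 lay far below the smoke arrays, whereas replicate 1 lay above 4 of them. Over 10 arrays the difference was 1.80 (SE 0.43), 3.49-fold, with a limma adjusted p of 0.0258. Without room air replicate 1, picked by its high values, it was 2.30 (SE 0.10), 4.91-fold (adjusted p = 2.12e-07, a description only). Leaving out any other array except smoke replicate 4 ended the call, with adjusted p from 0.0561 to 0.0675 and differences from 1.65 to 1.81. Slide 1 gave -0.14, and slides 2 to 5 gave 2.02 to 2.55.

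Nox4, which makes hydrogen peroxide without cytosolic subunits, showed no difference past the threshold. The brighter probe read 2.48, 3.04, 2.87, 2.66 and 2.67 with room air and 2.66, 2.55, 3.00, 2.69 and 2.42 with smoke. High and low arrays occurred in both groups, which overlapped over most of their range. The difference was -0.08 (SE 0.12, 95% interval -0.34 to 0.18, limma adjusted p = 0.839), and -0.04 on the second probe (95% interval -0.30 to 0.22, adjusted p = 0.930). The smoke array was higher on 3 of 5 slides by the brighter probe and on 2 of 5 by the other.

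**Figure D3:**
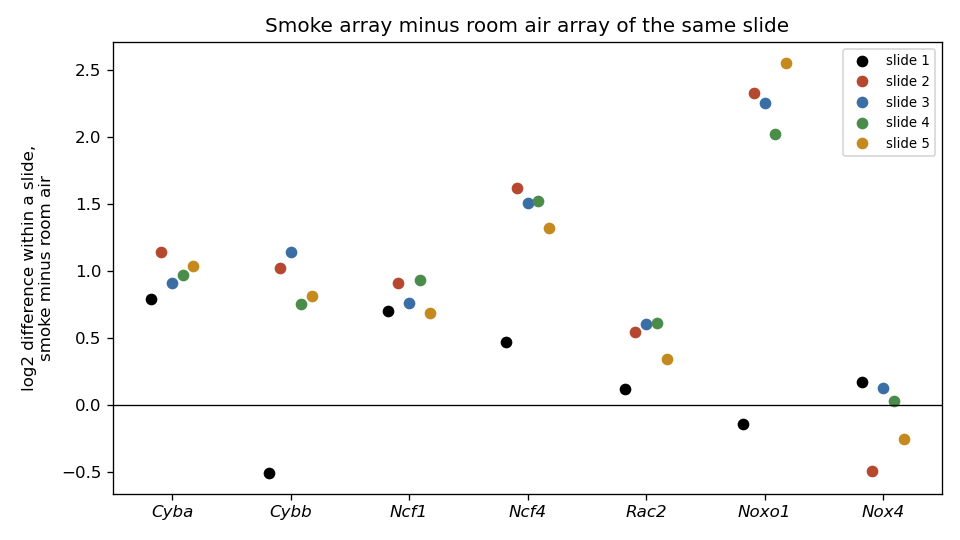
Log2 difference between the smoke array and the room air array of the same slide, for the brightest probe of each of the 7 genes; each colour is a slide. Slide 1, which holds replicate 1 of both groups, has the lowest difference for Cyba, Cybb, Ncf4, Rac2 and Noxo1, and is below 0 for Cybb and Noxo1.

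The promoters of 5 of the 7 genes were in the RefSeq promoter table (GRCm38.p6), and Ncf4 and Rac2 were not. The 250 bases before the annotated start are printed for Cyba and Ncf1, which rose together, and for Noxo1 and its partner Noxa1. In the first pair the capitals mark GGGCGG, the GC box letters, and in the second GCGTG, the core of the xenobiotic response element, on either strand. Each lies upstream of its own gene and is written 5′ to 3′ on that gene's strand.
Cyba (chr8:122432941-122433190, minus strand): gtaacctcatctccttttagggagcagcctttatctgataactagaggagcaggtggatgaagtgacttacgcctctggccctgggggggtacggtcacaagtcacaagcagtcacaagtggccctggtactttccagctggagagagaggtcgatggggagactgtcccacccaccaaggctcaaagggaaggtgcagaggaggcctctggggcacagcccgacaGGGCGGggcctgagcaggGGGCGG
Ncf1 (chr5:134229626-134229875, minus strand): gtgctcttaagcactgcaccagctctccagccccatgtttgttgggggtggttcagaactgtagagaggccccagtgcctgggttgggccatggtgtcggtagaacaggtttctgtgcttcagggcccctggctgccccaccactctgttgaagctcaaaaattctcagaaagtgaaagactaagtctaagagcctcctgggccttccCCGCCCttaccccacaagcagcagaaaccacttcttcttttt
Noxo1 (chr17:24695984-24696233, plus strand): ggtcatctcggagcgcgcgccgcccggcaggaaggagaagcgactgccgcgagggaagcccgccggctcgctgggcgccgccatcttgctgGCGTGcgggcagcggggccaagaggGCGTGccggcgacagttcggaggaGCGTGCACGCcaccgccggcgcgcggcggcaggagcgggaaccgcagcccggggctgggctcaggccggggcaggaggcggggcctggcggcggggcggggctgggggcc
Noxa1 (chr2:25095206-25095455, minus strand): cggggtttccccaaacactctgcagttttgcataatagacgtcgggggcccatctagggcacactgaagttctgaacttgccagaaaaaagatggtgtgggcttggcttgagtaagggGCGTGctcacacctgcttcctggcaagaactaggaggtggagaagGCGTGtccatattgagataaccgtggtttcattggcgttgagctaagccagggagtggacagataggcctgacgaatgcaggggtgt

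On both strands of such windows, 8 motifs were searched: GAGGAA, the core of ETS factor sites, AGAGGAA, which contains it, GCGTG, the antioxidant response element TGACNNNGC, the GC box GGGCGG, the box CCAAT, the box TATAAA and TTCNNGGAA, a form of the STAT motif. The motif GCGTG occurred 4 times before Noxo1, starting 159, 134, 110 and 105 bases before the start, and 2 times before Noxa1, at 132 and 87 bases. Of all 32851 promoters in the table, 28.2% held GCGTG at least 1 time, 8.63% at least 2 times and 0.846% at least 4 times. It was found 0 times in the windows of Cyba, Cybb, Ncf1 and Nox4.

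The GC box letters occurred 2 times before Cyba, 1 time before Ncf1 and Nox4 and 2 times before Noxo1. Of all promoters, 32.7% held them at least 1 time and 16.7% at least 2 times. CCAAT was found before Cybb and Noxa1 (33.8% of promoters) and TTCNNGGAA before Nox4 (4.06%). GAGGAA (23.3%), AGAGGAA (8.55%), TGACNNNGC (10.2%) and TATAAA (12.4%) were found in 0 of these 6 windows. These are matches of letters only, and binding was not measured.

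Of the 10 other genes of the oxidase family, limma called 1 higher and 0 lower (0 lower at an unadjusted p under 0.05), where 4.95% of all genes were higher and 3.27% lower, and the median difference was 0.05. The gene called was Noxa1, the activator that works with Noxo1. Its ratios were 2.16, 1.19, 1.86, 1.03 and 0.88 with room air and 2.61, 2.55, 2.43, 2.13 and 2.68 with smoke. Room air replicate 1 was again the highest of its group, just above the lowest smoke array. The difference was 1.06 (SE 0.23), 2.08-fold (adjusted p = 0.0162), and 1.24 without room air replicate 1 (adjusted p = 0.00137).

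Nox1, the catalytic partner of Noxo1 and Noxa1 in epithelium, and Nox3, the oxidase of the inner ear, were not well above background on any of the 10 arrays. The dual oxidase Duox1 differed by 0.00065, Duox2 by 0.08 and their maturation factors Duoxa1 and Duoxa2 by 0.05 each, with adjusted p from 0.660 to 0.997. Their signals were faint, with mean red of 84.6, 92.7, 77.3 and 74.8 in that order, against 63.2 for Nox1 and 61.0 for Nox3. Duoxa1 was well above background in red on only 2 room air and 2 smoke arrays. Such faint signals limit how far these differences can be read. The ubiquitous GTPase Rac1 differed by -0.19 on its brighter probe (adjusted p = 0.533) and by 0.15 on its second probe (adjusted p = 0.237). Rac3 differed by 0.12 (adjusted p = 0.889). Cybc1, a chaperone of the membrane core, differed by 0.12 (adjusted p = 0.286).

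Genes that assemble or trigger the phagocyte oxidase were listed as a further set. Of the 29 measured, of 30 listed, 17 were called higher and 1 lower, where limma called 4.95% of all genes higher and 3.27% lower, and the median difference was 0.46. Past a fold change of 2 were the integrin chain Itgb2 (2.42-fold, adjusted p = 1.7e-06), the Fc receptor chain Fcer1g (2.36-fold, 0.000813) and the proton channel Hvcn1, which balances the charge the oxidase moves (2.20-fold, 2.99e-05). The Toll-like receptor Tlr2 (2.18-fold, 0.0221), the lipid kinase subunit Pik3r5 (2.12-fold, 0.000231) and the Fc receptor Fcgr3 (2.09-fold, 0.000146) were the others. The brightest in red was Sirpa, an inhibitory receptor of myeloid cells, at 1.75-fold (0.000836). The gene called lower was Rap1a, a small GTPase found with the membrane core, with a difference of -0.24 (adjusted p = 0.0398). With the slide as a block, 20 of the 29 were called higher and 1 lower, where 7.5% of all genes were higher and 6.27% lower.

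Of 8 transcription factors measured, of 9 listed, 2 were called higher and 1 lower, where 4.95% of all genes were higher and 3.27% lower, and the median difference was 0.04. Spi1, the ETS factor of myeloid cells, was 1.49-fold higher (adjusted p = 0.00543) and Irf8 1.26-fold higher (adjusted p = 0.00579). The interferon-induced Irf1 was lower, with a difference of -0.30 (adjusted p = 0.0351). In all 3 cases the groups did not overlap on the brightest probe. The second probes gave 0.36 for Irf8 (adjusted p = 0.106) and -0.14 for Irf1 (adjusted p = 0.359), both with overlap. Cebpa differed by 0.28, Cebpb by 0.19, Elf1 by -0.12, Rela by -0.18 and Nfkb1 by -0.15, with adjusted p from 0.436 to 0.833. Cebpa passed with the slide as a block (adjusted p = 0.0315), and Cebpb without room air replicate 1 (adjusted p = 0.0423). Without that array, 3 of the 8 were called higher and 1 lower, where 6.23% of all genes were higher and 4.12% lower, and the median difference was 0.18. Nfkb1 read 1.51 on room air replicate 1 and 0.16 to 0.51 on the other 9 arrays, and without that array its difference was 0.09 (adjusted p = 0.581).

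The genes whose ratios over the 10 arrays were most like each rising subunit gene were sought among 17128 genes by Pearson's r, as a description. The arrays share the difference between the groups, so the r of deviations from group means is given too. For Ncf4 they were the actin bundler Lcp1 (r = 0.995, and 0.978 within groups), the prostacyclin receptor Ptgir (0.995 and 0.983) and the inflammatory protease Casp1 (0.989 and 0.947). For Ncf1 they were the leukocyte receptor Cd84 (0.993 and 0.959), the macrophage factor Irf5 (0.985 and 0.923) and the unnamed C130050O18Rik (0.983 and 0.916). Cyba went with the Toll-like receptor transporter Unc93b1 (0.981 and 0.850), the pentose phosphate enzyme Pgd (0.981 and 0.802), which makes NADPH, and the membrane protein Emp3 (0.980 and 0.882). Rac2 went with the lymphoid and myeloid factor Runx3 (0.980 and 0.947), the actin regulator Was (0.968 and 0.913) and the transcript NAP108473-1 (0.967 and 0.980). Within groups and without room air replicate 1, r was 0.657 to 0.820 for the genes of Ncf4, 0.878 to 0.959 for those of Ncf1, 0.706 to 0.888 for those of Cyba and 0.704 to 0.952 for those of Rac2.

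Noxo1 had other neighbours: the iron-carrier binding protein Lcn2 (r = 0.997, and 0.993 within groups), the cholesterol hydroxylase Ch25h (0.993 and 0.989) and the acute phase protein Saa3 (0.993 and 0.985). Both r hold a large difference, between the groups in the first and between room air replicate 1 and its group in the second. Within groups and without that array, over 9 arrays, r was 0.845 for Lcn2, 0.671 for Ch25h and 0.487 for Saa3. Lcn2 read 4.03, 0.92, 0.85, 0.51 and 0.79 with room air and 4.04, 4.35, 4.13, 3.60 and 4.14 with smoke. Saa3 read 3.50 on room air replicate 1, -3.12 to -2.56 on the other 4 room air arrays and 2.41 to 2.98 with smoke. Room air replicate 1 lay within the range of the smoke arrays for Lcn2 and above all 5 of them for Saa3, and far from its own group for both.

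**Figure D4:**
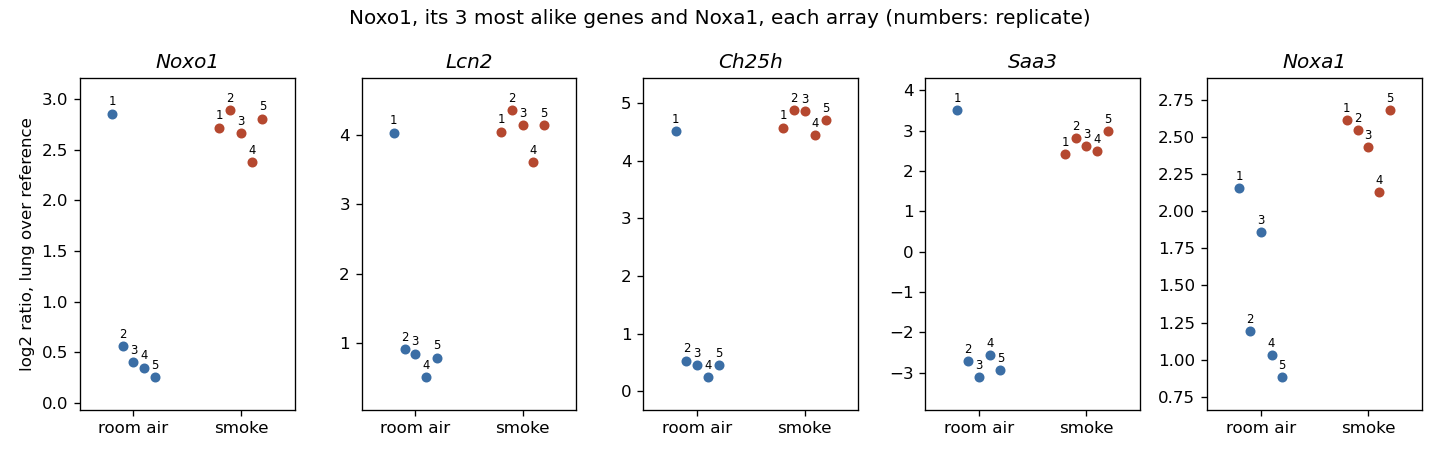
Log2 ratio of lung over reference on each array for Noxo1, for Lcn2, Ch25h and Saa3, the 3 genes most like it, and for Noxa1; points are arrays with their replicate number, and each panel has its own scale. Room air replicate 1 lies apart from the other 4 room air arrays for Noxo1, Lcn2, Ch25h and Saa3; for Noxa1, replicate 3 lies near it.

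Room air replicate 1 was examined across all genes. In 3.31% of 27639 genes it lay further from the rest of its group than Dixon's 95% limit allows, against 0.597 to 1.86% for the other room air arrays and 0.575 to 2.00% for the smoke arrays. Its mean ratio over the 12 neutrophil markers measured was the highest of all 10 arrays, 0.87 above the room air mean, while the other room air arrays lay from -0.37 to -0.13 and the smoke arrays from 0.04 to 0.48. Over the monocyte and interstitial macrophage markers it stood 0.59 above the room air mean, within the smoke arrays' range of 0.45 to 0.89. Over the alveolar macrophage markers it was 0.15 above that mean, with the smoke arrays at 0.69 to 1.14. The part of these cell markers in the values of Cybb and Noxo1 was not tested.

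Of the 12 markers of alveolar macrophages, limma called 7 higher with smoke and 0 lower (2 lower at an unadjusted p under 0.05, and 2 with the slide as a block), with a median difference of 0.96. Over all genes 4.95% were higher and 3.27% lower, or 7.5% and 6.27% with the block. The scavenger receptor Marco was 6.05-fold higher (adjusted p = 0.00248), the chitinase-like Chil3, the brightest in red, 4.33-fold (0.000138) and the lysosomal Cd68 4.16-fold (6.92e-09). Itgax was 2.53-fold, Plet1 2.42-fold and Mrc1 2.20-fold higher, with adjusted p of 2.56e-07, 0.0473 and 0.00115. The siglec Siglecf, which is also on the eosinophil list, differed by 0.25 (adjusted p = 0.312). The 2 lower with the block were the fatty acid binding Fabp1, with a difference of -0.66 (adjusted p = 0.0628, or 0.0111 with the block), and the receptor kinase Mertk, at -0.22 (0.211, or 0.0351 with the block). Without room air replicate 1, Fabp1 was called lower in the fit without a block, by -0.73 (adjusted p = 0.0445), where 4.12% of all genes were lower. All 12 markers were well above background in red on at least 1 array.

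Of 10 monocyte and interstitial macrophage markers measured, of 11 listed, limma called 5 higher and 0 lower (0 lower at an unadjusted p under 0.05, and 1 with the block), with a median difference of 0.68. Over all genes the shares were 4.95% higher and 3.27% lower, and 6.27% lower with the block. Adgre1 was 2.62-fold higher (adjusted p = 8.4e-07) and the complement gene C1qb 2.50-fold (0.00428). The brightest in red, Cd14, read 2.16 on room air replicate 1, -1.71 to -1.46 on the other room air arrays and 0.47 to 0.94 with smoke, a difference of 1.55 (adjusted p = 0.220). Without that array the Cd14 difference was 2.29 (adjusted p = 3.05e-07), and 7 of the 10 markers were called higher, where 6.23% of all genes were. Of 7 genes shared by leukocytes 4 were called higher (4.95% of all genes), with a median of 0.53. With the block 6 of 7 were called higher (7.5% of all genes), and 6 of 7 without room air replicate 1 (6.23% of all genes). Coro1a, the brightest, differed by 0.47 (adjusted p = 0.0755, or 0.0116 with the block and 0.00988 without room air replicate 1), and Ptprc by 0.35 (adjusted p = 0.0660, or 0.0285 with the block and 0.00202 without room air replicate 1). These counts depend on the probe. The second Coro1a probe was called by limma (0.54, adjusted p = 0.0127), while the second probes of Cd48 (0.34, 0.0798) and Lcp1 (0.80, 0.0807) were not. Cyth4 gave 0.13 on its brightest probe (0.827), 0.37 on another (0.0871), and 0.63 (0.00517) and 0.67 (0.00485) on those called.

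Of 12 neutrophil markers measured, of 13 listed, limma called 2 higher and 0 lower (0 lower at an unadjusted p under 0.05), where 4.95% of all genes were higher, and the median was 0.13. They were the collagenase Mmp8 (2.24-fold, adjusted p = 0.0210) and the antimicrobial peptide gene Camp (1.51-fold, adjusted p = 0.00881). S100a9, the brightest in red, differed by 0.16 (adjusted p = 0.852), and the granule protease gene Elane was not well above background in red on any array. With the slide as a block, 3 of the 12 were called higher (7.5% of all genes), and the call gained was Ltf. Its rise was 1.86-fold (adjusted p = 0.207, or 0.0307 with the block), and 2.32-fold without room air replicate 1 (adjusted p = 0.0137). Without room air replicate 1, 4 of the 12 were called higher, where 6.23% of all genes were, and the median was 0.42.

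Of 7 dendritic cell markers 3 were called higher, Ccr7, Flt3 and Itgae (4.95% of all genes), with a median of 0.07. Zbtb46 differed by -0.22 (adjusted p = 0.495, or 0.0420 with the block). By limma 0 of 6 B cell markers were called (0 at an unadjusted p under 0.05), with a median of 0.10 and the brightest, Cd79b, at 0.32. Of 8 markers of T and natural killer cells 0 were called (1 higher and 1 lower at an unadjusted p under 0.05), with a median of 0.05. Their brightest, Cd3d, differed by 0.35 (adjusted p = 0.349, or 0.0327 with the slide as a block), and Cd3g by 0.43 (adjusted p = 0.153, or 0.00539 with the block). The natural killer cell receptors Ncr1 and Klrb1c differed by -0.34 (adjusted p = 0.0625) and -0.23 (0.304). Without room air replicate 1, Ncr1 was called lower (adjusted p = 0.0324) and 0 of the 8 higher. In that fit 4.12% of all genes were lower and 6.23% higher. The 5 eosinophil markers and the 7 epithelial markers had 0 calls (0 at an unadjusted p under 0.05), with medians of 0.09 and 0.0093 (0.07 and 0.0382 without room air replicate 1), and the brightest epithelial marker, Sftpc, whose red signal was saturated on 1 array, differed by -0.13. Of 7 fibroblast and smooth muscle markers, Acta2, Pdgfra and Pdgfrb were called lower, by differences of -0.45, -0.49 and -0.46, where 3.27% of all genes were lower, and the list's median was -0.31. These calls rest on the brightest probes. The next brightest Acta2 probe gave -0.04 (limma adjusted p = 0.917), and no other Acta2 probe was called in that fit. The second Pdgfra probe gave -0.15 (adjusted p = 0.746). The collagen genes Col1a1 and Col1a2 differed by 0.25 (adjusted p = 0.467) and 0.07 (adjusted p = 0.911), the latter by -0.08 without room air replicate 1. With the block, 4 of the 7 were lower (6.27% of all genes), with Myh11 at -0.20 (adjusted p = 0.498, or 0.0339 with the block). Of 5 endothelial markers Pecam1 was called lower (-0.41), and with the block so was Tek (-0.24, adjusted p = 0.155, or 0.0159 with the block), with a median of -0.17 and the brightest, Vwf, at -0.10. The part of any of these cell types in the differences of the subunit genes was not tested.

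**Figure D5:**
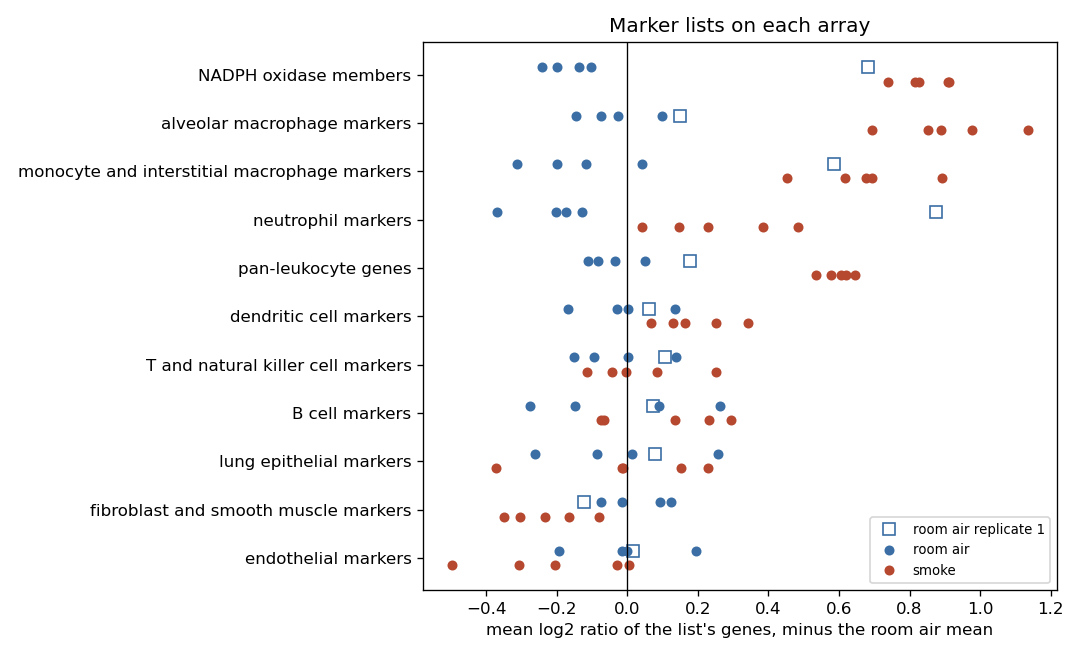
Mean log2 ratio of each list's genes on each array, minus the mean of the 5 room air arrays; blue is room air, with replicate 1 as an open square, and red is smoke. On the subunit genes the open square lies at 0.68, between the other room air arrays and the smoke arrays, and on the neutrophil markers it lies beyond all smoke arrays.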

How the data were processed

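RNA of 10 lungs was measured, and the authors deposited each array's scanner output with red and green spot intensity and local background. Per the file headers, Agilent Feature Extraction 9.5.3.1 also gives log10 ratios, red divided by green. The deposited value table holds log2 values, found to be the mean over channels of background-subtracted median signals, with column medians of 7.34 to 8.06. Compared with the scanner output, its 2 groups are swapped. In red, 64.9 to 77.5% of spots were well above background; the number of arrays limits precision.

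Intensities were corrected by normexp (limma 3.58.1, R 4.3.3; offset 50), control spots were left out, ratios were normalised by loess, spots flagged as outliers (83 to 144 an array) were set missing, and spots of a probe were averaged. Groups were compared with lmFit and eBayes, two-sided, with Benjamini-Hochberg adjustment over 41173 probes and a threshold of 0.05. A gene is represented by its brightest probe in red. Of the probes, 22951 were named through accessions and 8455 kept the name in the file. The steps were tested on simulated data.

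Arrays with equal replicate numbers, 1 from each group, shared a slide, and slides were scanned over 4 days. On every slide the smoke array was at place 1 and the room air array at place 2. Group and place on the slide thus cannot be told apart, also with the slide as a block. Deviations of same-numbered arrays from their group means correlated at 0.157 to 0.550, against a median of -0.124 and a highest value of 0.205 for different numbers, so the ranges overlap. On slide 1, with 0.157, room air replicate 1 correlated at 0.161 with smoke replicate 3. All 5 same-numbered pairs were above 0.1 and each shared a slide, and the slide was taken to pair the samples. P-values of the fit without a block measure the spread between the arrays of a group, and those with the block the spread of differences within slides. Each mouse has its own array, so the spread of mice, RNA preparation and array cannot be told apart.

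The members and lists were chosen with earlier results of these data known. Named were all subunit genes, other family genes and transcription factors, of longer lists, called genes that differed more than 2-fold and the brightest, the 3 genes most like each rising subunit gene, and Cyp1b1, Nqo1 and Ahrr. Genes named besides, because few of a list were called or because their values stood out, were chosen after their values were seen, as were the motifs and the promoters shown. Room air replicate 1 was likewise singled out after its values were seen. Where it lay apart from its group, leaving it out narrows the room air spread by construction. Adjusted p and counts of calls without it are therefore descriptive. Not every subunit of the oxidase is reported here. Alternatives changed the test, background correction, normalisation, channel, filter, probe choice and block, and left out each array.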

Additional observations from a re-analysis of the deposited data

Results flagged for a closer look

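In 2 of the 14 sets of 5 arrays formed by the 7 subunit genes in each group, a sample lay far from the other 4 by Dixon's test at the 95% level, which flags about 1 set in 20 by chance. Both were room air replicate 1. Its Cybb ratio was 4.14 on the log2 scale, with the next room air array at 2.76, and its Noxo1 ratio was 2.85, with the next at 0.56. The part of that animal, its RNA or its array in these values was not tested.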

How the results depend on the processing

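Over 21 other ways of computing the comparison, the differences of Cyba, Cybb, Ncf1, Ncf4, Rac2 and Noxo1 were above 0 in all 21, and Nox4 was above 0 in 1. Past the threshold were Cyba, Ncf1 and Ncf4 in 20 of 21, Rac2 in 12, Noxo1 in 11, Cybb in 1 and Nox4 in 0. The exception for the first 3 was the exact Wilcoxon test, whose smallest possible p with 5 against 5 is 0.00794. It called 0 probes (5444 at an unadjusted p under 0.05) and 0 subunit genes (4 unadjusted). The adjusted p by that exact test was 0.115 for the differences of Cyba (0.97), Ncf1 (0.80) and Ncf4 (1.29), 0.240 for Rac2 (0.45) and 0.417 for Noxo1 (1.80).

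With the replicate block, probes called went from 2906 to 5019, and subunit genes called stayed at 5. The block changed the second Cybb probe and Cebpa, Coro1a, Ptprc, Fabp1, Mertk, Ltf, Cd3d, Cd3g, Zbtb46, Myh11 and Tek as given above. Among the brightest probes, it changed no other call of a named gene. Red alone scaled to the 75th percentile called 1759 probes, and gave Rac2 0.55 (adjusted p = 0.165); red alone after quantile normalisation gave Rac2 0.55 (0.0712). The scanner's log ratio gave Noxo1 1.89 (0.0581).

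Leaving out each array gave 3 to 6 subunit genes called and 2102 to 3660 probes. Differences ranged from 0.38 to 0.54 for Rac2, 1.65 to 2.30 for Noxo1 and 0.53 to 0.95 for Cybb.

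Of 3 alternatives chosen after seeing the data, the replicate block without slide 1 called 6088 probes and 6 subunit genes, with Cybb at 0.94 (adjusted p = 4.5e-05). The deposited table, columns as labelled, called 13 probes and 0 subunit genes (2 unadjusted). Those columns, whose groups are swapped relative to the scanner files, gave Cyba -0.41, Ncf1 -0.35, Ncf4 -0.61, Rac2 -0.26 and Noxo1 -1.05. The green reference channel alone called 10 probes and 0 subunit genes (1 unadjusted), with Cyba at -0.0296, Ncf1 at -0.0286, Ncf4 at 0.0086, Rac2 at 0.0884 and Noxo1 at 0.18.

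With 5 arrays a group, small differences such as those of Nox4 are bounded by their intervals and not shown to be absent.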
